A study of Mus musculus with 20 samples.

Results

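Interferon-stimulated genes were followed as 44 named genes among the 55487 gene identifiers counted in mouse liver. They are a list of named genes of the interferon response, drawn up with earlier results of these data known, and were sorted into 8 roles: the IFIT family, the ISG15 system, transcription factors, the OAS family, sensors of foreign nucleic acid, other antiviral effectors, interferon-inducible GTPases and class I antigen processing. All 44 were counted in every library and passed the filter on low counts in each comparison, with a mean of at least 1 CPM (read counts scaled to library size). The 2 members that passed the test of high-fat diet (HFD) against chow, Ifi27 and Tap1, were both higher on HFD. Of all genes 9.75% passed that test in either direction. Between pairs of protein sources 0 members passed, where 0.157% of all genes or fewer did. The members varied more from mouse to mouse within the HFD groups than among the chow-fed mice in 43 of 44 genes, where 63.0% of all genes did so, a spread to which mice 14, 23 and 32, each in another group, contributed much.

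Interferons are secreted proteins that cells release on sensing viral or other misplaced nucleic acid. Type I and type III interferons act through JAK kinases on the factor ISGF3, which binds the interferon-stimulated response element (ISRE) of its target genes, while type II interferon acts on the GAS element. The targets include proteins that block viral RNA, GTPases that act on intracellular pathogens, and the machinery that loads peptides onto class I MHC molecules, and in liver they are expressed by hepatocytes as well as by immune and endothelial cells.

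The livers came from 20 female C57BL/6J mice, 1 library per mouse, which entered the experiment at 8 weeks of age and were 28 weeks old at its end. Chow-fed mice (n = 5) received standard feed throughout. The other mice became obese on HFD and then ate, for 10 weeks, an isocaloric HFD in which 50% of the protein was fishmeal from salmon by-products (n = 5), salmon filet (n = 6) or beef (n = 4). The HFD groups therefore differ from chow in the whole diet. The sample labels place mouse 31 in the salmon filet group whereas the heading of its column of counts names beef. The heading would make both groups 5 mice, which is the equal group size that the study describes. Mouse numbers run from 1 to 10 on chow, 12 to 20 with fishmeal and 32 to 40 with beef. The other salmon-fed mice are numbered 22 to 27, so by its number mouse 31 stands next to the beef-fed mice. The labels were followed, and the main results on single protein sources are also given with mouse 31 counted as beef.

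Libraries held 42526234 to 70266136 counted reads. All 8 hepatocyte markers were detected in every group, with a summed level of 94790 to 131979 TPM, a level scaled to gene length and library depth. Protein-coding genes took 93.2% to 95.6% of the reads in 19 libraries and 84.3% in that of mouse 35, fed beef, which had the lowest CPM of all 20 mice for 17 members. Genes of the circadian clock also differed with diet: a score of morning-phase minus evening-phase clock genes (log2 CPM) ran from 1.4 to 3.3 in the chow-fed and from -3.4 to 2.5 in the HFD-fed mice. In bulk liver RNA, fewer cells of a type and less RNA per cell cannot be told apart.

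The promoters show what the members share at the level of DNA. RefSeq start sites on GRCm38.p6 gave a window of 250 bases before to 50 bases after the start for 33 of 44 members, and the core GAAANNGAAA of the ISRE stood on either strand in 19 of these 33 genes (57.6%), against 3.99% of 27025 genes with such a window. The core TTCNNNGAA of the GAS element, which reads the same on the opposite strand, stood in 8 of the 33 (24.2%), against 9.55% of all. The 10 stretches printed here, written 5′ to 3′ in the direction of transcription, lie upstream of the RefSeq start sites and come from members of several roles; capitals mark the bases of ISRE core matches, which read TTTC...TTTC where the core is on the opposite strand and run together where matches overlap.
Isg15, chr4:156200860-156200911, minus strand: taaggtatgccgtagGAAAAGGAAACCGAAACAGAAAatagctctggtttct
Ifit1, chr19:34640770-34640828, plus strand: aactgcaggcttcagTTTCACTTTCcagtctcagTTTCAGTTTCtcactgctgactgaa
Ifit3, chr19:34583358-34583431, plus strand: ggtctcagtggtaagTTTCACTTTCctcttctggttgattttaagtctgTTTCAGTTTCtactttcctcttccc
Ifit3b, chr19:34607754-34607827, plus strand: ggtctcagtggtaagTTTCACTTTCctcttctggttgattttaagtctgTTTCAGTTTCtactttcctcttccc
Stat2, chr10:128270261-128270300, plus strand: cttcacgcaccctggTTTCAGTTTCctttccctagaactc
Rsad2, chr12:26456548-26456587, minus strand: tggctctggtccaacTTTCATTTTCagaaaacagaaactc
Bst2, chr8:71537572-71537617, minus strand: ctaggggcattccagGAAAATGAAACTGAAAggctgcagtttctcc
Gbp3, chr3:142559984-142560029, plus strand: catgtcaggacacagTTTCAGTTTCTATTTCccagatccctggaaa
Igtp, chr11:58199507-58199546, plus strand: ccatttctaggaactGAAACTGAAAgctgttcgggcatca
Irgm2, chr11:58214898-58214937, plus strand: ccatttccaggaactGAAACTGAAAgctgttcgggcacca
Isg15 carried 3 overlapping matches. The stretches of Ifit3 and Ifit3b differed at 0 of 74 bases, and those of Igtp and Irgm2 at 2 of 40. The window of Tap1 held a match to neither core; its RefSeq start site lies 225 bases from that of Psmb9, which is transcribed in the opposite direction, and no window was found for Ifi27.

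Levels per gene length spanned a wide range. Iigp1, a GTPase that attacks the vacuoles of intracellular parasites, had the highest mean over the 20 mice at 219 TPM. It was followed by Bst2, which tethers budding virus to the cell surface, at 136 TPM, Ifi27, a small membrane protein induced by type I interferon, at 97.4 TPM, Irgm2 at 72.8 TPM and Igtp at 62.3 TPM. The lowest was Oas3, one of the enzymes that make the activator of RNase L, at 0.597 TPM. The ligands themselves were barely seen: Ifna1, Ifna2, Ifna4, Ifna5, Ifnl2 and Ifnl3 had 0 counts in every library, Ifnb1 had at most 1 count in a library and Ifng at most 5.

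HFD against chow asked whether 15 obese mice differed from 5 lean mice whatever their protein source. Of the 44 members 2 were called, 2 higher and 0 lower, at an adjusted p under 0.05 in edgeR's quasi-likelihood test. That is a smaller share than the 9.75% of all 17120 genes that were called in either direction, and close to the 4.54% called and higher. At an unadjusted p under 0.05 there were 6 members, where 24.4% of all genes passed. The log2 fold change was above 0 in 34 of 44 members (77.3%, against 50.9% of all genes), with a median of 0.12 against 0.005 over all genes. The median was 0.062 without mouse 23 and 0.066 without mouse 14. Many members moved together within a mouse: 43 were above the chow mean of log2 CPM in mouse 23 and 6 in mouse 27. The 44 members are therefore not 44 separate observations. In 42 members the 95% interval of the change lay within a 2-fold change in either direction, and in 28 within a 1.5-fold change. No member separated the groups fully: 0 of 44 had ranges that did not overlap, against 1.64% of all genes.

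**Figure D1:**
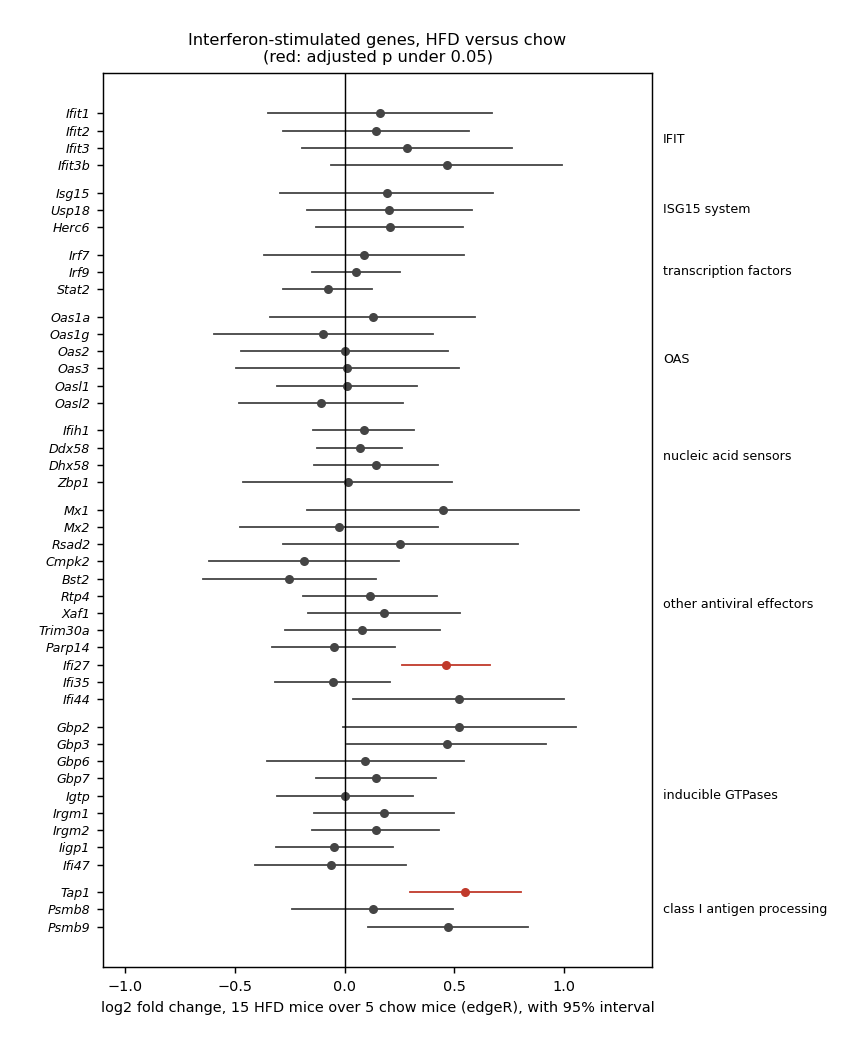
Log2 fold change of HFD over chow (x axis, edgeR estimate with 95% interval) for the 44 members (y axis), grouped by role; red marks an adjusted p under 0.05. Ifi27 at 0.46 and Tap1 at 0.55 are the red points, and 34 of 44 points lie above 0.

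The test called Ifi27 (chromosome 12, 103434211 to 103440239 on GRCm38, plus strand) most clearly. It had 40.9, 45.9, 38.2, 47.2 and 48.9 CPM in the chow-fed mice and 67.4, 63.3, 65.4, 56.3 and 55.2 CPM with fishmeal. The beef-fed mice had 61.9, 59.7, 69.8 and 73.6 CPM, and the salmon-fed mice ranged from 46.8 over a median of 54.4 to 67.9 CPM. The fishmeal and beef groups thus lay wholly above the chow group, and the salmon filet group reached into it at its lower end. The means were 44.2 ± 4.52 CPM (SD, n = 5) on chow and 61.0 ± 7.78 CPM (SD, n = 15) on HFD. All 15 HFD mice were above the chow mean, a 1.38-fold difference (0.46 on the log2 scale, SE 0.095, adjusted p = 0.00313).

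Tap1 encodes a subunit of the transporter that carries peptides into the endoplasmic reticulum for class I MHC molecules, and lies on chromosome 17 at 34187553 to 34197225, plus strand. In the chow group it had 12.3, 19.9, 17.2, 17.5 and 16.8 CPM. Mice fed fishmeal had 22.3, 25.6, 30.1, 19.5 and 21.6 CPM, and those fed beef 22.0, 30.2, 26.2 and 23.9 CPM. In the salmon filet group it ran from 20.5 over a median of 22.9 to 32.0 CPM. A single chow-fed mouse, at 19.9 CPM, was above the lowest HFD mouse, at 19.5 CPM. The means were 16.8 ± 2.75 CPM (SD, n = 5) and 24.5 ± 4.01 CPM (SD, n = 15), again with 15 of 15 HFD mice above the chow mean, a 1.46-fold difference (0.55 on the log2 scale, SE 0.121, adjusted p = 0.00518).

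With any 1 of the 20 mice removed, mouse 35 included, both genes were still called. Both were lost when the clock score was added to the model as a covariate, which also took the number of called genes from 1669 to 314: the log2 fold change was then 0.30 for Ifi27 (adjusted p = 0.213) and 0.36 for Tap1 (adjusted p = 0.256). The score and the diets largely moved together, and the part of the clock in these differences was not tested further.

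The other members of class I antigen processing are the immunoproteasome subunits Psmb8 and Psmb9, which reshape the peptides that TAP1 carries. Psmb9 had 11.9, 19.7, 11.9, 16.3 and 15.9 CPM on chow and 21.3, 17.4, 21.9, 16.3 and 19.8 CPM with fishmeal. With beef it had 17.9, 29.6, 22.9 and 22.4 CPM, and with salmon filet 12.2 to 30.7 CPM around a median of 19.4. It was above the chow mean in 14 of 15 HFD mice, with overlapping groups. Its log2 fold change of 0.47 (SE 0.173) did not pass the test (adjusted p = 0.0898), and it was 0.10 with the clock score in the model. Without mouse 31 its adjusted p was 0.0396. The genes Tap1 and Psmb9 overlap by 212 bases on opposite strands, so that reads from the overlap could be assigned to either unless they were counted by strand, a setting not given in the sources used here. Psmb8 differed less, with means of 19.5 ± 3.91 CPM on chow and 21.3 ± 5.85 CPM on HFD and a difference of 0.13 on the log2 scale (SE 0.174, adjusted p = 0.709).

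**Figure D2:**
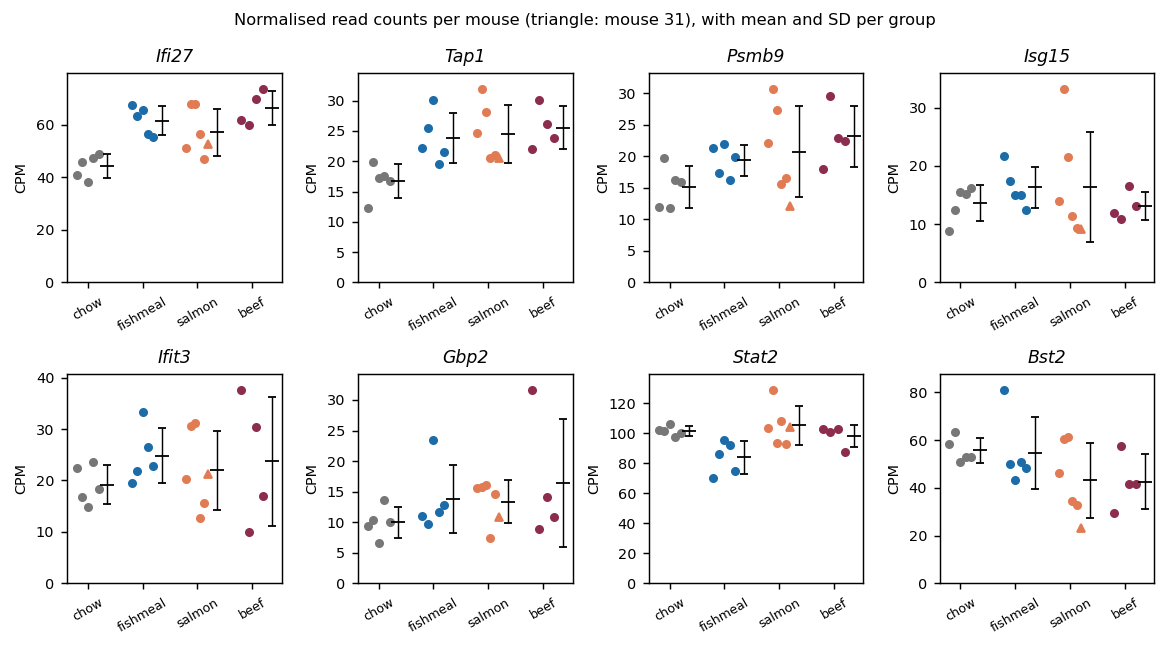
CPM (y axis, from 0) of 8 members in each mouse by diet (x axis); points are mice, the triangle is mouse 31, and black marks give the mean and SD of each group. All 15 HFD mice lie above the chow mean of 44.2 CPM for Ifi27 and of 16.8 CPM for Tap1, while Ifit3, Isg15 and Gbp2 overlap widely between diets and single mice stand far above their groups.

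IFIT proteins bind viral RNA and hold back its translation. The 4 members of the family all had log2 fold changes above 0 (median 0.22), and 0 passed the test. Ifit3 had 22.4, 16.7, 14.9, 23.6 and 18.3 CPM on chow and ran from 10.0 over a median of 21.9 to 37.6 CPM on HFD. Its log2 fold change was 0.28 (SE 0.228, adjusted p = 0.479). Both ends of the HFD range came from beef-fed mice, mouse 35 being lowest and mouse 32 highest. Ifit3b had the largest change of the family at 0.46 (SE 0.250, adjusted p = 0.262), with means of 5.03 ± 1.11 and 6.95 ± 2.54 CPM. The transcripts of Ifit3 and Ifit3b are 97.8% identical over 1700 bases, so their counts may be split between them.

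Isg15 encodes a ubiquitin-like protein that is attached to other proteins, Usp18 removes it, and Herc6 attaches it. All 3 were close together in their log2 fold change, at 0.19 to 0.21, and 0 passed. Isg15 had 8.77, 12.4, 15.5, 15.2 and 16.2 CPM on chow and 9.18 to 33.3 CPM on HFD around a median of 14.0. Only 8 of 15 HFD mice were above the chow mean, and the highest value, in mouse 23 fed salmon filet, exceeded the highest chow value by a wide margin. Its log2 fold change was 0.19 (SE 0.231, adjusted p = 0.662).

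Among the transcription factors, Stat2 had the smallest SD of log2 CPM of the 44 members on chow, with 97.2 to 105.9 CPM around a median of 101.7. It is the subunit of ISGF3 that drives transcription, and Irf9 and Irf7 belong to the same arm of the pathway. On HFD Stat2 ran from 70.4 to 128.9 CPM around a median of 95.5, and its log2 fold change was -0.08 (SE 0.097, adjusted p = 0.678). The fishmeal group had 70.4, 86.3, 95.5, 91.9 and 75.0 CPM and lay wholly below the chow group, but the difference of -0.28 on the log2 scale (SE 0.101) did not pass the test (adjusted p = 0.165). The 3 factors had a median log2 fold change of 0.05 for HFD against chow.

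The 6 members of the OAS family, enzymes and their relatives that respond to double-stranded RNA, had a median log2 fold change of 0.005, 4 of 6 above 0, with 0 called. Oasl1, the family's highest member per length at 13.7 TPM, had means of 14.1 ± 2.80 CPM on chow and 14.2 ± 3.22 CPM on HFD (log2 fold change 0.01, SE 0.152, adjusted p = 0.981). Oas2 shows how far a single mouse could depart from its group: with fishmeal it had 1.94, 8.84, 12.9, 6.51 and 8.11 CPM, against 6.64 to 8.86 CPM on chow. Oas1a and Oas1g are 97.6% identical over 1861 bases. Of the 4 sensors of nucleic acid, all had log2 fold changes above 0 (median 0.08) and 0 were called. Ddx58, which encodes the RNA sensor RIG-I, had means of 37.8 CPM on chow and 39.7 ± 5.42 CPM on HFD (log2 fold change 0.07, SE 0.092, adjusted p = 0.698). Zbp1, a sensor of Z-form nucleic acid, had 43.9 CPM in mouse 23 and at most 23.9 CPM in any other mouse.

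Of the 12 other antiviral effectors 7 had log2 fold changes above 0, and Ifi27 alone was called. Ifi44, whose function is less well known, had 5.30, 6.28, 4.93, 7.31 and 5.63 CPM on chow and 4.88 to 15.1 CPM on HFD around a median of 6.91 (0.52 on the log2 scale, SE 0.228, adjusted p = 0.160). Mx1, of the dynamin-like GTPase family, had 2.37 ± 0.402 and 3.23 ± 1.4 CPM (log2 fold change 0.45, SE 0.295, adjusted p = 0.375). It shares 94.8% of 920 bases with Mx2, which the gene annotation lists as a polymorphic pseudogene. Rsad2 encodes viperin, which makes a chain-terminating nucleotide, and stood at 0.25 on the log2 scale (SE 0.254, adjusted p = 0.585). In the opposite direction, Bst2 had 58.4, 63.5, 50.8, 53.1 and 52.7 CPM on chow and 23.3 to 81.1 CPM on HFD around a median of 46.0. Its log2 fold change was -0.25 (SE 0.187, adjusted p = 0.440), the lowest of the 44.

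The GTPases guard against intracellular bacteria and parasites. Of the 9, 7 had log2 fold changes above 0 (median 0.14) and 0 passed. Gbp2 had 9.32, 10.3, 6.58, 13.6 and 9.97 CPM on chow and 7.49 to 31.7 CPM on HFD around a median of 12.8 (log2 fold change 0.52, SE 0.252, adjusted p = 0.204). Gbp3 had 15.9, 15.5, 15.9, 22.5 and 18.4 CPM on chow and 13.7 to 41.5 CPM around a median of 21.5 (0.46 on the log2 scale, SE 0.216, adjusted p = 0.186). Both were above the chow mean in 12 of 15 HFD mice, and mouse 32, fed beef, was highest for both. The most abundant member, Iigp1, had 459, 450.4, 581, 559.5 and 525 CPM on chow and 411 to 710.5 CPM on HFD around a median of 448 (-0.05 on the log2 scale, SE 0.126, adjusted p = 0.866). The transcript of Gbp6 is 99.8% identical to that of Gm43302 over 2603 bases, and Igtp and Irgm2 overlap on the same strand, so the levels of these members are uncertain.

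Each protein source was then set against chow. These 3 comparisons share the same 5 chow-fed mice and are not independent of each other. With fishmeal 1 member was called (Ifi27), where 3.38% of all genes were called. With salmon filet 1 was called (Tap1), against 4.46% of all genes, and with beef 1 (Ifi27), against 2.48%. The median log2 fold change of the 44 members was 0.16 for the fishmeal diet, 0.07 for salmon filet and 0.09 for beef. With mouse 31 counted as beef it was 0.08 for salmon filet and 0.05 for beef, which turns their order, and with 1 mouse left out it ran from -0.041 to 0.15 and from -0.030 to 0.20. The same change of group left 1 member called with salmon filet, where 4.42% of all genes were called, and 1 with beef, where 3.05% were.

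For Ifi27, fishmeal over chow gave 0.47 on the log2 scale (SE 0.0997, adjusted p = 0.0241), salmon filet over chow 0.37 (SE 0.109, adjusted p = 0.0689) and beef over chow 0.58 (SE 0.111, adjusted p = 0.0216). For Tap1 fishmeal gave 0.50 (SE 0.148, adjusted p = 0.0920), salmon filet 0.55 (SE 0.143, adjusted p = 0.0465) and beef 0.60 (SE 0.147, adjusted p = 0.0598). With mouse 31 counted as beef, Ifi27 stood at 0.40 with salmon filet (adjusted p = 0.0693) and 0.52 with beef (adjusted p = 0.0316). Tap1 then stood at 0.60 with salmon filet (adjusted p = 0.0407) and 0.54 with beef (adjusted p = 0.0628), so that neither gene crossed the threshold. Every mouse of each HFD group was above the chow mean for both genes. The calls within single groups sat close to the threshold. That of Ifi27 with fishmeal was lost without mouse 2, 5, 13 or 14 (adjusted p 0.0504 to 0.0720), and with beef without mouse 2, 7, 39 or 40 (adjusted p 0.0515 to 0.0872). That of Tap1 with salmon filet was lost without any of mice 1, 2, 5, 7, 10, 22, 23, 25, 26 and 27 and kept only without mouse 31, when its adjusted p was 0.0407.

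The protein sources were also compared with each other, which is the question the diets were built for. Fishmeal against salmon filet called 0 of 44 members in edgeR, where 0.157% of all genes were called. At an unadjusted p under 0.05 there was 1 member, where 4.24% of all genes passed. That member was Stat2, with means of 83.8 ± 10.8 CPM (SD, n = 5) and 105.1 ± 13.1 CPM (SD, n = 6); fishmeal over salmon filet was -0.33 on the log2 scale in edgeR (SE 0.111, 95% interval -0.58 to -0.08, adjusted p = 0.840), and -0.34 with mouse 31 counted as beef (SE 0.121, adjusted p = 0.877). Fishmeal against beef called 0 members, against 0.00607% of all genes, and salmon filet against beef called 0, where 0% of all genes were called. At an unadjusted p under 0.05 both of these had 0 members, where 2.33% and 3.71% of all genes passed. DESeq2 called 0 members in the 3 comparisons, where it called 83, 31 and 2 of all genes in the order above. With mouse 31 counted as beef 0 members were called in each, where 0.17%, 0.0245% and 0% of all genes were called in the order above.

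Absence of a call left room for sizeable differences. For Ifi27 the 95% interval of the log2 fold change was -0.14 to 0.36 for fishmeal over salmon filet and -0.38 to 0.16 for fishmeal over beef. For Tap1 the intervals were -0.36 to 0.28 and -0.45 to 0.24. For Isg15, fishmeal over salmon filet gave -0.01 with an interval of -0.70 to 0.68, so that a change of 1.5-fold either way could not be told from none; with mouse 31 counted as beef it gave -0.15 (SE 0.294).

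The HFD mice differed among themselves more than the chow-fed mice did. The mean over the 44 members of log2 CPM minus the chow mean lay between -0.094 and 0.176 in the 5 chow-fed mice. In the 15 HFD mice it ran from -0.319 in mouse 35 to 0.627 in mouse 23. The chow-fed mice are fewer and are centred on 0 by this measure, so part of the difference in range is built in. High and low mice occurred within every HFD group: with fishmeal mouse 14 was at 0.593 and mouse 12 at -0.117, with salmon filet mouse 23 was at 0.627 and mouse 27 at -0.256, and with beef mouse 32 was at 0.425 and mouse 35 at -0.319. Mouse 23 had the highest CPM of all 20 mice for 19 members, and mice 14 and 32 for 11 each.

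**Figure D3:**
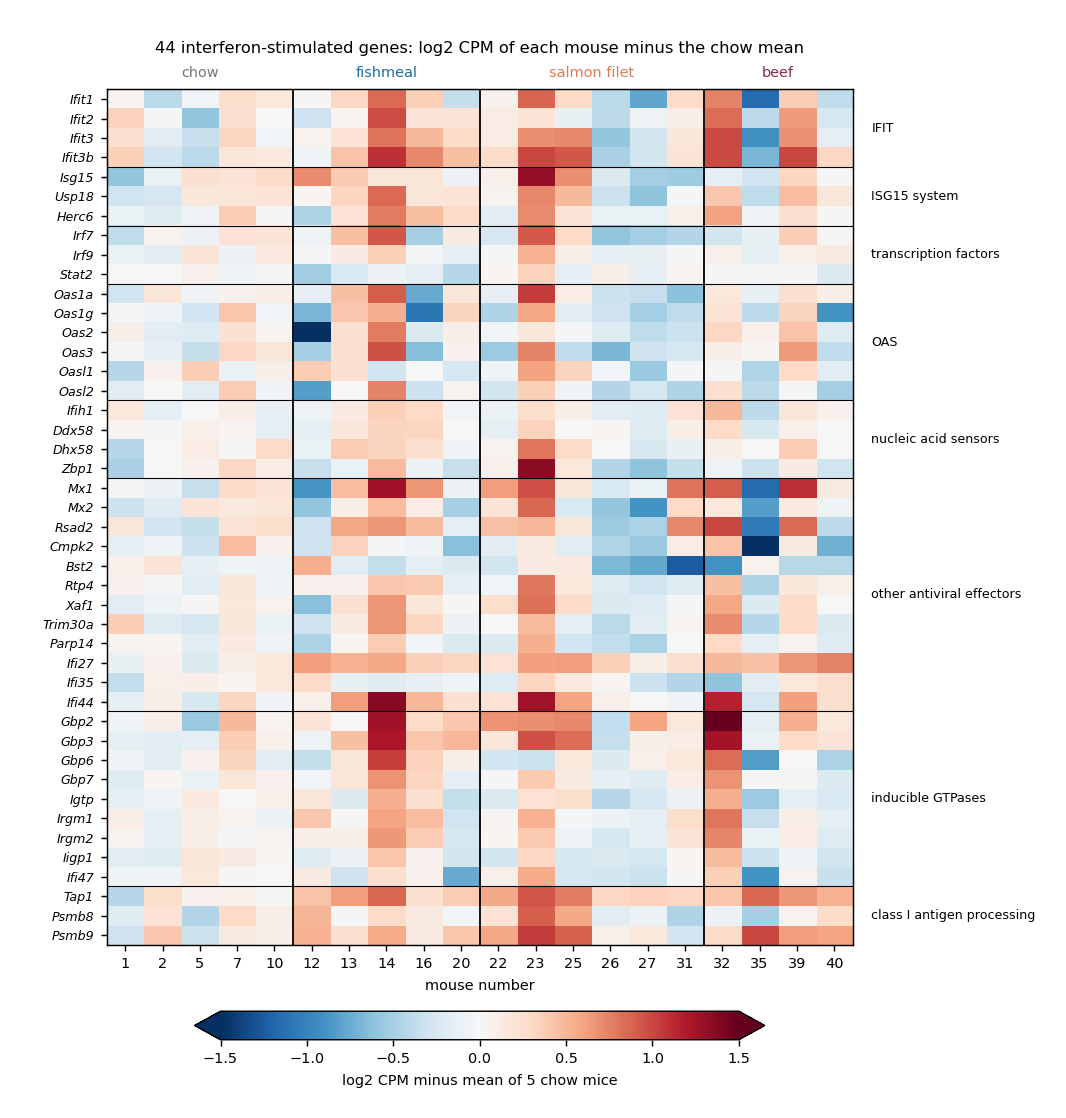
Log2 CPM of each member (rows, by role) in each mouse (columns, by diet) minus the mean of the 5 chow-fed mice; red is higher, blue is lower, and colours saturate at 1.5. Columns 14, 23 and 32 are red over most rows, column 35 is mostly blue, and the rows of Ifi27 and Tap1 are red in all 15 HFD mice.

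The leading role differed between the high mice. In mouse 14 the IFIT family was highest, at a mean of 0.93 above chow on the log2 scale, and the GTPases stood at 0.74. Mouse 32 had the same order, with 0.89 for the IFIT family and 0.82 for the GTPases, but 0.17 for the OAS family and -0.06 for the transcription factors. In mouse 23 class I antigen processing led at 0.97, followed by the ISG15 system at 0.92, with the GTPases lowest at 0.41. In mouse 35 class I antigen processing stood at 0.45 while the IFIT family was at -0.79, but its genes diverged there: Tap1 was at 0.87 and Psmb9 at 1.00, whereas Psmb8 was at -0.50, the lowest of all 20 mice.

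**Figure D4:**
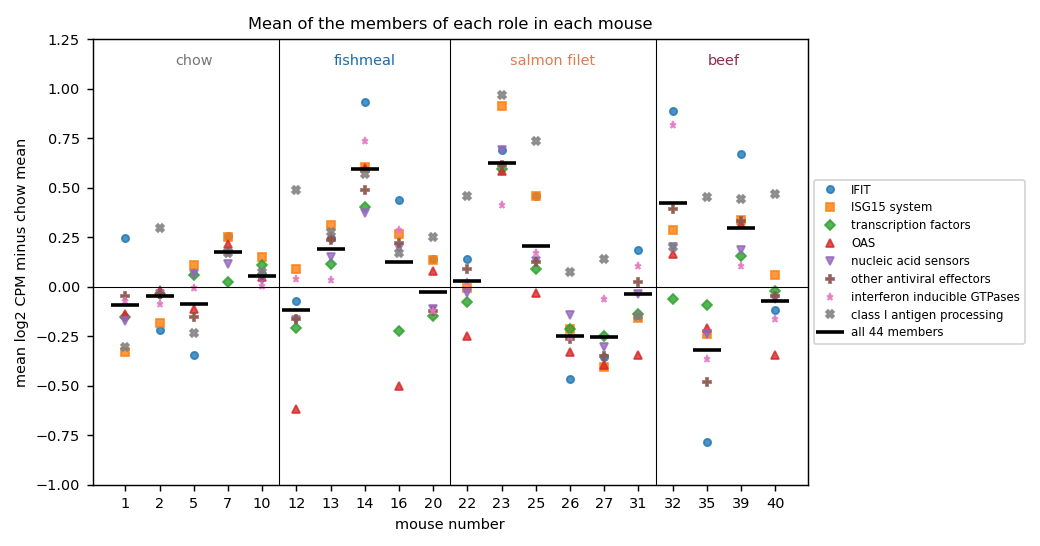
Mean log2 CPM minus the chow mean (y axis) of the members of each role in each mouse (x axis, by diet); the black bar is the mean over all 44 members. The bars lie at 0.593, 0.627 and 0.425 in mice 14, 23 and 32, and at -0.319 in mouse 35, where the points spread from -0.79 to 0.45.

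Marker genes of other cell types were summed in each mouse. The summed level of 6 plasmacytoid dendritic cell markers was 23.3 TPM in mouse 23, the highest of the 20. It was 13.4 TPM in mouse 14 and 11.1 TPM in mouse 32, within the 5.10 to 14.1 TPM of the chow-fed mice. All 6 were detected on chow and on HFD. Ly6d, at a mean of 7.78 TPM over the 20 mice, and Tcf4, at 2.15 TPM, made up most of this sum. Siglech had 0.364 TPM and Ccr9 0.0502 TPM. Klk1 had at most 13 counts in a library and Cox6a2 at most 7, so the sum is no measure of cell number. For 10 Kupffer cell markers mice 14, 23 and 32 had 577, 603 and 406 TPM, within the chow range of 366 to 772 TPM. For 8 natural killer cell markers they had 8.17, 4.91 and 7.30 TPM, against 4.97 to 8.94 TPM on chow. The 6 monocyte markers summed to 17.5 TPM in mouse 14, the highest of the 20, and to 8.74 to 16.3 TPM on chow. Plac8, at a mean of 11.0 TPM over the 20 mice, made up most of that sum. The 8 hepatocyte markers were lowest of the 20 in mouse 23, at 94790 TPM. They were nearly as low, at 94836.5 TPM, in mouse 35, which had the lowest mean over the members. The 8 neutrophil markers of mouse 23, at 12.3 TPM, were the highest of the HFD mice, against 7.73 to 13.4 TPM on chow. The 8 sinusoidal endothelial markers summed to 155 to 191 TPM on chow and 104 to 167 TPM on HFD. Of these, 2 were called lower on HFD, Clec4g and Fcgr2b, while Stab2 was higher without a call (log2 fold change 0.23, adjusted p = 0.209 in edgeR). The 10 T cell markers summed to 5.29 to 8.52 TPM on chow and 2.13 to 6.34 TPM on HFD. The 7 B cell markers summed to 7.06 to 17.96 and 2.86 to 7.82 TPM. Called lower on HFD at an adjusted p under 0.05 in edgeR were 5 of 9 tested T cell and 7 of 7 B cell markers. So were 2 of 7 tested natural killer cell and 1 of 4 tested neutrophil markers. The natural killer cell markers Gzmb and Ncr1 were higher on HFD without a call (log2 fold change 0.49 and 0.45, adjusted p = 0.0834 and 0.380). So was the T cell marker Cd8a (0.32, adjusted p = 0.677). Over all genes 9.75% were called in either direction. The part of cell composition in the members' levels was not tested.

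The spread can be given gene by gene as the SD of log2 CPM between mice of one diet, over 12696 genes with a mean of at least 1 CPM. Its median over the 44 members was 0.225 on chow, 0.360 for the fishmeal group, 0.383 for salmon filet and 0.384 for beef, while over all genes it was 0.198, 0.233, 0.180 and 0.245. The SD was above that on chow for 36 of 44 members with fishmeal (59.1% of all genes), for 42 with salmon filet (43.4%) and for 36 with beef (65.1%). Without mouse 35 the beef group had a median of 0.338 and 32 of 44 members above chow (51.0% of all genes). With mouse 31 counted as beef the medians were 0.414 for salmon filet and 0.353 for beef, with 42 and 38 members above chow (37.0% and 64.0% of all genes). A single high mouse carried much of this in each group. The members' median was 0.269 with fishmeal without mouse 14, 0.224 with salmon filet without mouse 23 and 0.285 with beef without mouse 32. Over all genes it was then 0.238, 0.170 and 0.184, so the fall in the beef group was also seen over all genes. Then 28, 31 and 32 of 44 members were above chow (61.0%, 39.5% and 45.3% of all genes). These mice were picked because they were high for the same members, so a smaller SD without them was built into the choice. Since the same mice were high or low for many members, these counts are not 44 separate observations. Mx1 had the largest SD within HFD groups, at 0.767 against 0.247 on chow. The exception was Tap1, with 0.244 within HFD groups and 0.256 on chow, and Ifi27 was nearly as even, at 0.18 and 0.15. Within the HFD groups the called members were thus among those that varied least. The test sets a change against the spread of these same values, so a low spread in called members is partly built into the call. On chow Tap1 was above the members' median of 0.225.

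**Figure D5:**
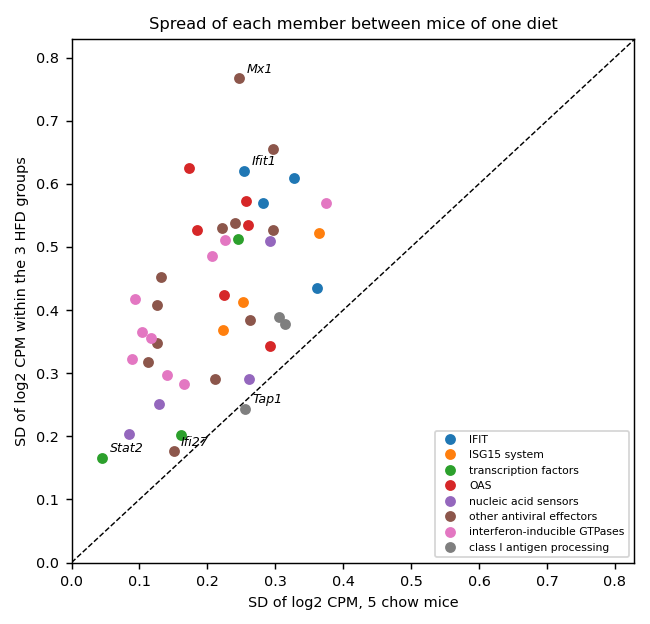
SD of log2 CPM of each member within the 3 HFD groups (y axis, pooled over groups) against that among the 5 chow-fed mice (x axis), coloured by role, with the line of equal spread dashed. All points but that of Tap1 lie above the line, as 63.0% of all genes do, and Mx1 is highest at 0.767.

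The rest of the pathway was followed with 71 further genes, of which 60 were tested. For HFD against chow 2 were higher and 0 lower, with a median log2 fold change of 0.05, again beside 9.75% of all genes called. The called genes were Irf2, an interferon regulatory factor best known as an antagonist of IRF1, and Cxcl10, a chemokine induced by interferon gamma. Irf2 had a mean of 48.5 ± 5.91 CPM on chow and 64.1 ± 12.6 CPM on HFD, with 15 of 15 HFD mice above the chow mean (log2 fold change 0.40, SE 0.129, adjusted p = 0.0488). Cxcl10 had 2.14 ± 0.464 and 3.41 ± 1.09 CPM, also with 15 of 15 above (log2 fold change 0.68, SE 0.213, adjusted p = 0.0460). Both calls were at the threshold: with 1 mouse left out Irf2 stayed called in 8 of 20 fits and Cxcl10 in 7 of 20, and with the clock score in the model their log2 fold changes were 0.04 and 0.45 (adjusted p = 0.945 and 0.518).

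Nlrc5, the activator of class I MHC genes, was higher with beef than on chow, by 0.55 on the log2 scale (SE 0.107, adjusted p = 0.0241), and stood at 0.45 for HFD as a whole (SE 0.162, adjusted p = 0.0831). Its call with beef was lost without mouse 7, 10, 39 or 40 (adjusted p 0.0522 to 0.0913), with limma (adjusted p = 0.136) and in the edgeR fit on all 4 groups (adjusted p = 0.136); with mouse 31 counted as beef it was 0.51 (adjusted p = 0.0219). None of the 6 receptor chains was called, with Ifnar1 at 0.09 (SE 0.0518, adjusted p = 0.285) and Ifnar2 at 0.05 (SE 0.107, adjusted p = 0.828) for HFD against chow. The inhibitors gave no call either, with Ptpn6, a phosphatase that acts on JAK kinases, at 0.04 (SE 0.0758, adjusted p = 0.780) and Irf2bp2, a corepressor of Irf2, at 0.03 (SE 0.141, adjusted p = 0.919). Among the sensing adaptors Mavs, which relays the signal of RIG-I at mitochondria, stood at 0.18 (SE 0.102, adjusted p = 0.306), and Tbk1, the kinase that activates IRF3, at -0.05 (SE 0.068, adjusted p = 0.727).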

How the data were processed

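Liver RNA was sequenced from strand-specific mRNA libraries. The authors trimmed reads with BBDuk, mapped them with HISAT2 (1.2.1 in the submitters' processing notes) and deposited raw counts per Ensembl gene from featureCounts (1.4.6-p1), without pooling. A second deposited table gave TPM, which the authors scaled to gene length. The notes print GRCh38 as the build of these mouse data, and strand and multi-mapping settings are not given in the sources used here. Symbols and positions are from GENCODE M21 on GRCm38. The deposited table gives the symbol Gbp6 to another Ensembl gene than GENCODE does, and GENCODE was followed.

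Counts were tested with edgeR 4.0 (R 4.3) on the compared groups: TMM, filterByExpr with a minimum count of 10, two-sided quasi-likelihood tests and p-values adjusted over every tested gene by Benjamini-Hochberg. SE is the log2 fold change divided by the root of F. CPM used TMM factors over all libraries, with a prior count of 2 on the log scale. Alternatives were DESeq2 1.42, limma 3.58 on log2(TPM + 1), other normalisations and filters, all 4 groups in 1 fit, the clock score, mouse 31 as beef, and each mouse left out; the fits of Irf2, Cxcl10 and Nlrc5 under these alternatives, and the spread without mice 14, 23, 32 or 35 or with mouse 31 as beef, were added after seeing the data. The fits were tested on simulated data in which each gene varied independently. Mice that were high or low for many members at once were not simulated, so this test does not cover them. Similar transcripts were searched with blastn 2.17 at 90% identity over at least 400 bases. P-values measure the spread between mice. None of the 41 library pairs within groups agreed within counting noise.

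The members and lists were chosen with earlier results of these data known. Genes named in full were members called in any comparison, the 10 members with the largest change for HFD against chow and the member of each role with the highest TPM; from the other pathway lists, called genes and otherwise the 2 with the highest TPM. Ifit1, Usp18, Herc6, Irf7, Irf9, Oas1a, Oas1g, Oas2, Oas3, Zbp1, Mx2, Gbp6, Igtp, Irgm2 and the interferon ligands are named outside this rule.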

Additional observations from a re-analysis of the deposited data

Results flagged for a closer look

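The lowest or highest mouse stood apart from its group in 2 of 72 groups examined, which were the 17 members named in full and the mean of all 44 in each of 4 diets; chance alone marks about 1 in 20. Bst2 was 81.1 CPM in mouse 12, fed fishmeal, and 43.5 to 50.6 CPM in the other 4 mice of that group. Stat2 was 87.2 CPM in mouse 40, fed beef, and 100.4 to 102.7 CPM in the other 3.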

How the results depend on the processing

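For HFD against chow the number of called members was 2 under every other count model, normalisation and filter tried, 2 to 3 with 1 mouse left out (3 without mouse 31, when Psmb9 was also called), and 0 with the clock score as a covariate. Fishmeal against chow called 1 member, salmon filet against chow 1 and beef against chow 1; DESeq2 called 2, 2 and 3, limma on log2(TPM + 1) called 0, 0 and 0, and the fit on all 4 groups called 2 with beef. With 1 mouse left out the counts ran from 0 to 1, 0 to 1 and 0 to 2; the third of these was 2 without mouse 32, when Tap1 was also called (adjusted p = 0.0404). The comparisons between protein sources called 0 under each alternative run. Few of all genes were called there either: with DESeq2 83 for fishmeal against salmon filet, 31 for fishmeal against beef and 2 for salmon filet against beef. Among single members, Oasl1 had a log2 fold change for HFD against chow of -0.048 with limma, -0.00093 in the fit on all 4 groups and -0.084 to 0.11 with 1 mouse left out, Psmb8 had -0.0024 with the clock score, and Iigp1 ran from -0.092 to 0.00095 with 1 mouse left out. The median over the 44 members for HFD against chow was 0.06 to 0.15 with 1 mouse left out, lowest without mouse 23, and 0.03 to 0.12 under the other alternatives. The call of Tap1 with fishmeal and of Ifi27 with salmon filet under DESeq2 had adjusted p-values of 0.0273 and 0.0329. No paired analysis was possible because the diets share no replicate numbers in the labels. Over all genes the number called against chow was 556, 740 and 411 for fishmeal, salmon filet and beef, 1193, 1490 and 1091 with DESeq2, and 367, 437 and 276 with limma. Between protein sources, the 95% interval lay within a 1.5-fold change in only 22, 15 and 18 of 44 members for fishmeal against salmon filet, fishmeal against beef and salmon filet against beef.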
